A study of Homo sapiens with 8 samples.

Results

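The 10 SOX genes described here are SOX1, SOX2, SOX4, SOX8, SOX9, SOX10, SOX11, SOX14, SOX17 and SOX21. They were listed by name with a start position given to the nearest kb on GRCh37, and that rule uses no measured value, although the list was drawn up with earlier results of these data known. For each start, the share of bases lying inside deposited H3K27me3 peaks was taken within 5 kb and within 50 kb on either side, which makes windows of 10 kb and 100 kb. The same shares over 303497 windows of 10 kb and 30340 windows of 100 kb, tiled over chromosomes 1 to 22 and X, served as the background. Assembly gaps, where no peak can be called, were not left out of these windows. Other SOX genes were not analysed here.

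H3K27me3 was mapped by chromatin immunoprecipitation and sequencing in MOLM14, an established line from a human acute myeloid leukaemia with an internal tandem duplication in FLT3, a receptor kinase gene. Cells received AC220 (quizartinib), an inhibitor of that kinase, or its solvent DMSO for 24 h, and Drosophila S2 cells were added before lysis. Of 8 samples, 2 AC220 and 2 DMSO immunoprecipitated libraries are used, with 1 peak list each, and the 4 inputs are not analysed here. All groups are the same line with no genetic change between them, and nothing in the labels says that libraries of a treatment came from separate cultures, so every p-value measures the spread between libraries, which may be technical. The lists hold no expression values, so the labelled cell type was not checked against marker genes.

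The libraries numbered 1 (set 1) and those numbered 2 (set 2) stand apart under both treatments. Peaks covered 192 Mb in AC220 1 and 232 Mb in DMSO 1, and 497 Mb in AC220 2 and 591 Mb in DMSO 2. The AC220 list thus covered 17.2% less sequence than the DMSO list in set 1 and 15.9% less in set 2. It did not hold fewer peaks in set 2, with 139642 in AC220 2 against 117556 in DMSO 2, and the counts of set 1 were close, at 104566 in AC220 1 and 104980 in DMSO 1. The AC220 peaks were narrower, with a median width of 996 bp in AC220 1 and 1612 bp in AC220 2, against 1211 bp in DMSO 1 and 2321 bp in DMSO 2. Peak lists give positions and scores within a library, so levels of the mark per cell cannot be read from them, sequencing depth is unknown, and a base without a peak is not shown to lack the mark. Every comparison of treatments below is therefore given within each set.

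SOX proteins are transcription factors that bind DNA through an HMG box, a domain first described in the sex-determining factor SRY, and most of them direct the choice of a cell lineage in the embryo. They are sorted into lettered groups by the sequence of that box. SOX1 and SOX2, together with SOX14 and SOX21, belong to group B of the neural and stem cell factors, SOX4 and SOX11 to group C, SOX8, SOX9 and SOX10 to group E, and SOX17 to group F. H3K27me3 is written by the Polycomb complex PRC2 and is known for lying over silent developmental genes, often centred on promoters rich in CpG dinucleotides. SOX4 is the member known for expression in blood progenitors, lymphoid precursors and leukaemias, which is why it is set against the other 9.

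The promoter sequences of SOX1, SOX2, SOX4 and SOX21 are shown because these 4 of the 10 members were matched in the sequence table used; those of SOX8, SOX9, SOX10, SOX11, SOX14 and SOX17 are not shown. SOX21 had a peak over the start in all 4 libraries. SOX2 had one in all but AC220 1, where a peak began closer to the start than the rounding of its position. SOX1 had partial coverage near the start in set 2 alone, and SOX4 had no peak there. The sequences run from 250 bases before to 50 bases after the start. Taken from RefSeq on GRCh38.p14, a different build from that of the peaks, they were joined to the peaks by gene symbol alone. Capitals mark each CpG dinucleotide (CG, which reads the same on both strands).
SOX1 (chr13:112066899-112067198, plus strand): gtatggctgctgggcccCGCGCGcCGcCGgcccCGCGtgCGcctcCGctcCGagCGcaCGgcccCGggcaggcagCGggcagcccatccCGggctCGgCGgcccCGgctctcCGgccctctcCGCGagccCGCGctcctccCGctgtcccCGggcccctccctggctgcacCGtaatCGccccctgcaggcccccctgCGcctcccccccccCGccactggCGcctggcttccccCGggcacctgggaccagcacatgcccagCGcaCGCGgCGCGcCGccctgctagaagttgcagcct
SOX2 (chr3:181711675-181711974, plus strand): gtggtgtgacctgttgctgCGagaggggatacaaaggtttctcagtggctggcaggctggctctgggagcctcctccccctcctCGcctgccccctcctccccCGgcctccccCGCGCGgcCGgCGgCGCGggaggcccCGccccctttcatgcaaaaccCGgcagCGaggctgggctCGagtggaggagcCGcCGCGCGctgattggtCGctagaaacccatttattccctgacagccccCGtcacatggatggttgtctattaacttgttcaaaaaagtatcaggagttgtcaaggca
SOX21 (chr13:94712496-94712795, minus strand): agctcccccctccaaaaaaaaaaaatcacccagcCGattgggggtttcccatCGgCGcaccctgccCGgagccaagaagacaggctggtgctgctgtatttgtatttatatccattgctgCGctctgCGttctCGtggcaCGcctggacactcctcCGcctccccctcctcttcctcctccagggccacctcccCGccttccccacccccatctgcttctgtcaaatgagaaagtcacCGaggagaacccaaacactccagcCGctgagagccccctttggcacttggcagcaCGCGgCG
SOX4 (chr6:21593501-21593800, plus strand): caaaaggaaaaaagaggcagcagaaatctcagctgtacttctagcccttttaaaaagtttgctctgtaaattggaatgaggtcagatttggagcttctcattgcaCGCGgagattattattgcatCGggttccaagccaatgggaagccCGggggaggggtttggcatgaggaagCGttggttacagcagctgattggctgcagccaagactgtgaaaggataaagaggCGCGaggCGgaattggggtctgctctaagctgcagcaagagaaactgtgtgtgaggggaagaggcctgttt

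The promoter of SOX1 held 37 CpG dinucleotides at 80% GC, that of SOX2 held 20 at 63.3% GC, that of SOX21 held 15 at 60% GC and that of SOX4 held 8 at 49.3% GC. Over the 35116 promoters in the same table the median was 14 CpG, 96% held at least 1, and the median GC content was 58.7%. SOX4 thus had the fewest CpG of the 4 and lay above 39.3% of all promoters, against 51.1% for SOX21, 58.8% for SOX2 and 88.7% for SOX1. Among these 4 genes the order by CpG did not follow the peaks. SOX1, with the most CpG, had less peak coverage than SOX2 or SOX21, and SOX4, with the fewest, had no peak within 5 kb. The other members were not compared, and a relation of CpG to the peaks was not tested. The motif CCAAT, searched on both strands, occurred 4 times in the SOX4 window, 1 time each in those of SOX2 and SOX21 and not in that of SOX1; 34.6% of all promoters held it. The motif GGGCGG, on both strands, occurred 1 time each in the SOX1 and SOX2 windows and not in those of SOX4 and SOX21; 45.0% of all promoters held it. These are matches of letters and not sites of binding.

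By the covered share within 5 kb, the 10 genes divided into broadly covered, partly covered and uncovered starts. SOX2, SOX14, SOX17 and SOX21 had at least 50% of the 10 kb around the start covered in all 4 libraries, which is 4 of 10 members against 3.39% of all 10 kb windows. SOX1, SOX8 and SOX9 had partial coverage. SOX4, SOX10 and SOX11 had no peak within 5 kb in any library, which is 3 of 10 members; 58.8% of all 10 kb windows had none. The split did not run between SOX4 and the rest: the blood-expressed gene shared its lack of peaks with a neural crest gene and a neural progenitor gene.

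**Figure D1:**
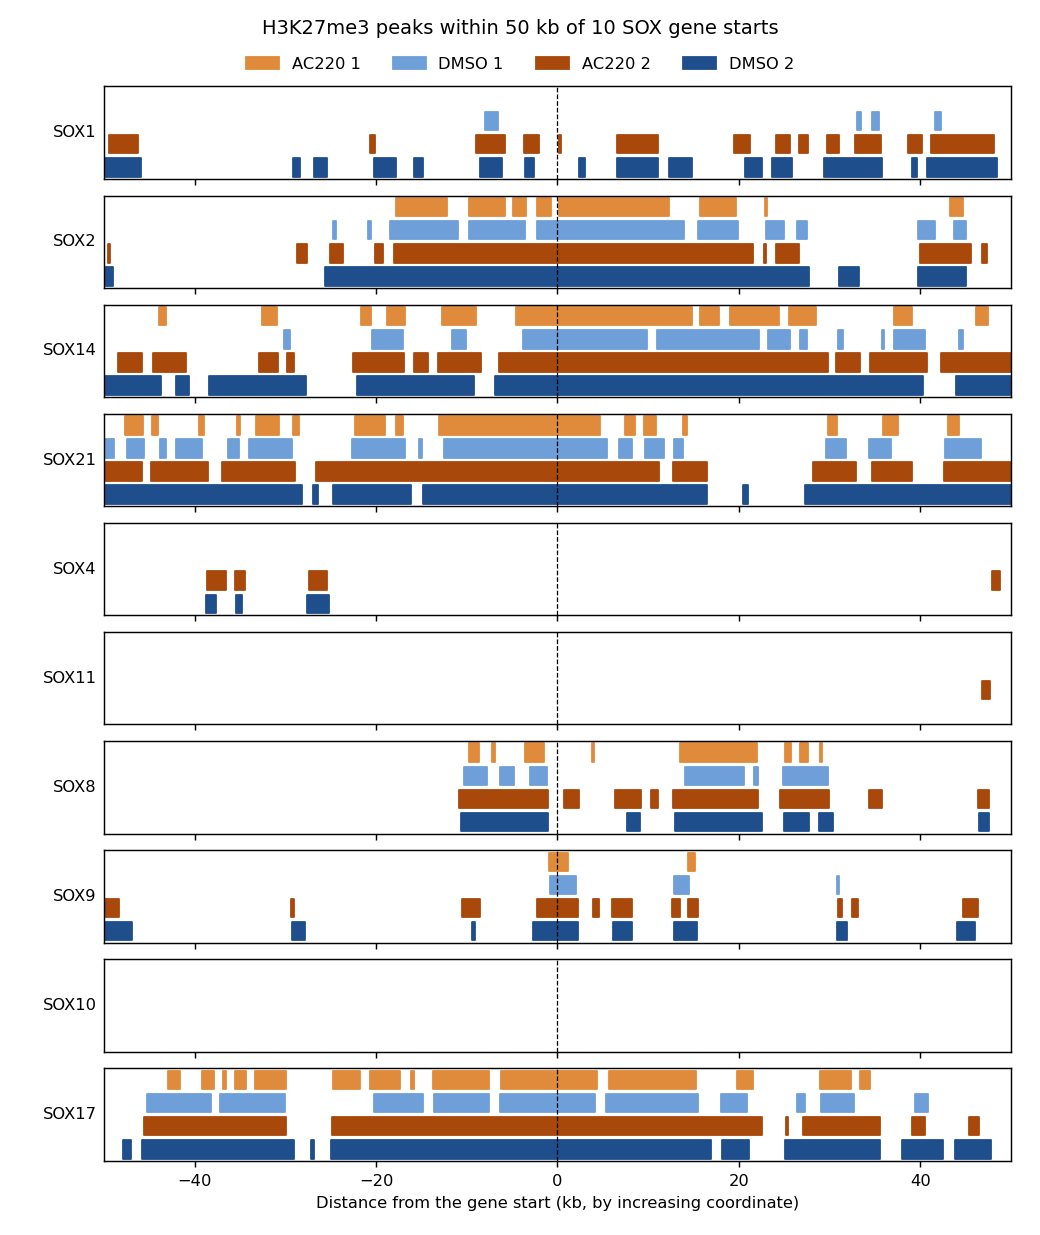
Deposited H3K27me3 peaks (bars) of the 4 libraries within 50 kb of each SOX start, with distance from the start in kb by increasing coordinate and the start as a dashed line. Unbroken bars cross the starts of SOX14, SOX17 and SOX21 in all 4 libraries, while the panels of SOX4, SOX10 and SOX11 are empty around the start.

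SOX2 keeps pluripotent and neural stem cells undifferentiated (start at 181430 kb on chromosome 3). Within 5 kb of it, 78.6% of bases were covered in AC220 1 and 100% in AC220 2, against 86.9% in DMSO 1 and 100% in DMSO 2. In set 2 the start lay inside a single peak, of 39.6 kb in AC220 2 (chr3:181411947-181451514) and of 53.3 kb in DMSO 2 (chr3:181404408-181457731). In AC220 1 the same area was called as 3 peaks within 5 kb, and the widest, of 12.1 kb, began 0.186 kb beyond the start. Because starts were given to the nearest kb, whether this peak held the start cannot be told. DMSO 1 had 2 peaks there, and one of 16.2 kb (chr3:181427717-181443928) held the start. With gaps of less than 1 kb joined, the mean difference at SOX2 within 5 kb, AC220 minus DMSO, was 0.79 percentage points, against -4.14 without joining.

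SOX14 and SOX21 are group B members that act mainly as repressors during neuronal differentiation. Within 5 kb of the SOX14 start (chromosome 3, 137483 kb), 95.2% was covered in AC220 1 and 100% in AC220 2, against 88.3% in DMSO 1 and 100% in DMSO 2. A single peak held that start in each library, of 19.3 kb in AC220 1 and 36.2 kb in AC220 2, against 13.7 kb in DMSO 1 and 47.2 kb in DMSO 2. The peak reached farther to higher coordinates than to lower ones in all 4 libraries, ending 14.8 kb and 29.8 kb beyond the start in AC220 1 and AC220 2 and 9.91 kb and 40.3 kb beyond it in DMSO 1 and DMSO 2.

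Around the SOX21 start (chromosome 13, 95365 kb), 96.9% of the bases within 5 kb were covered in AC220 1 and 100% in AC220 2, against 100% in both DMSO libraries. The peak over the start was 17.8 kb wide in AC220 1 and 37.9 kb in AC220 2, against 18.0 kb in DMSO 1 and 31.3 kb in DMSO 2. By the authors' -log10 q this peak stood above 99.3% of its list in AC220 1 and 99.8% in AC220 2, and above 99.5% in DMSO 1 and 99.96% in DMSO 2. It was the strongest peak by that rank among the SOX starts in AC220 2 and DMSO 2, and SOX14 ranked higher in AC220 1 and DMSO 1.

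SOX17 specifies endoderm and endothelium and, in the mouse, maintains fetal blood stem cells. Within 5 kb of its start (chromosome 8, 55370 kb), 93.2% was covered in AC220 1 and 100% in AC220 2, against 91.8% in DMSO 1 and 100% in DMSO 2. The peak over the start had nearly the same ends in set 1, at chr8:55363785-55374315 in AC220 1 and chr8:55363661-55374183 in DMSO 1, each 10.5 kb wide. In set 2 it was 47.5 kb wide in AC220 2 and 41.9 kb wide in DMSO 2. Around all 4 of these starts the widest peak near the start was wider than at least 97.8% of the peaks in its own list.

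SOX9, which drives cartilage and testis development, had a narrow peak on its start (chromosome 17, 70117 kb) in every library. The peak was 2.15 kb wide in AC220 1 and 4.57 kb in AC220 2, against 2.93 kb in DMSO 1 and 5.03 kb in DMSO 2. Within 1 kb of the start 97.6% and 100% were covered in AC220 1 and AC220 2, against 92.5% and 100% in DMSO 1 and DMSO 2. Within 5 kb the share was 21.4% and 52.9% in the AC220 libraries, against 29.2% and 50.3% in the DMSO libraries. Coverage therefore declined over a few kb, whereas around SOX2 it held at 84.2% or more within 10 kb in all 4 libraries.

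SOX8, a group E gene of neural crest, testis and glia, showed the reverse layout, with peaks on both sides and a gap at the start (chromosome 16, 1032 kb). No base within 1 kb was covered in AC220 1, DMSO 1 or DMSO 2, and 15.2% was covered in AC220 2. Within 5 kb the share was 22.9% in AC220 1 and 55.6% in AC220 2, against 21.1% in DMSO 1 and 39.5% in DMSO 2. SOX8 was the only one of the 10 members with higher coverage within 5 kb under AC220 in both sets, by 1.85 percentage points in set 1 and 16.1 in set 2. That is 1 of the 7 members with a peak there, against 8.38% of the 10 kb windows with a peak that were higher in both sets. Set 1 turned the other way within 2.5 kb, at 21.1% in AC220 1 against 27.5% in DMSO 1, within 10 kb, at 18.5% against 28.1%, and with the start moved 0.5 kb to lower coordinates, at 22.9% against 26.1%, so the direction in set 1 depended on the window. The pooled levels were 39.3% ± 23.1 with AC220 and 30.3% ± 13.1 with DMSO (SD, n = 2 each), which differ by less than the spread between libraries (two-sided exact permutation p = 0.667).

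SOX1, a marker of early neural progenitors (chromosome 13, 112722 kb), depended on the set. Set 1 had no peak within 5 kb in AC220 1 or DMSO 1, and the nearest peak was 73.3 kb away in AC220 1 and 6.58 kb away in DMSO 1. In set 2 the share within 5 kb was 19.9% in AC220 2 and 16.8% in DMSO 2. Within 50 kb it was 30.5% in AC220 2 and 39.4% in DMSO 2, split over 13 and 15 peaks, against 0% in AC220 1 and 3.34% in DMSO 1. The coverage near SOX1 thus came almost wholly from the longer lists of set 2.

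SOX10, the neural crest gene of pigment cells and glia, had no peak within 50 kb in any library (chromosome 22, 38381 kb). The nearest peak was 95.5 kb away in AC220 1 and 69.5 kb in AC220 2, against 95.8 kb in DMSO 1 and 68.6 kb in DMSO 2. Among coding genes in RefSeq on GRCh38.p14, ordered by start, it follows POLR2F, which encodes a subunit shared by RNA polymerases, and precedes PICK1. It was the only member of the 10 with no peak within 50 kb in any library, which was also true of 31.8% of all 100 kb windows. Like SOX4 and SOX11 it had no peak within 50 kb in either library of set 1, as had 46.3% of those windows.

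SOX11, a group C gene of neural progenitors, had sparsely covered surroundings (chromosome 2, 5833 kb). Within 50 kb the share was 0% in AC220 1 and 0.861% in AC220 2, against 0% in both DMSO libraries. Within 500 kb it was 0.114% in AC220 1 and 0.651% in AC220 2, against 0.0811% in DMSO 1 and 0.999% in DMSO 2. This was the lowest share of the 10 members at that width in every library, whereas within 50 kb SOX10 was lower in AC220 2.

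SOX4 (chromosome 6, 21594 kb) had 0% coverage within 25 kb in all 4 libraries. The nearest peak was 70.0 kb away in AC220 1 and 25.4 kb away in AC220 2, against 65.9 kb in DMSO 1 and 25.2 kb in DMSO 2. Within 50 kb the share was 0% in AC220 1 and 6.15% in AC220 2, against 0% in DMSO 1 and 4.22% in DMSO 2. Within 250 kb it was 5.03% in AC220 1 and 13.7% in AC220 2, against 4.9% in DMSO 1 and 17.7% in DMSO 2. These shares lay below the mean of all 100 kb windows in each library, which was 6.32% in AC220 1 and 16.3% in AC220 2, against 7.63% in DMSO 1 and 19.4% in DMSO 2. At the same width SOX11 had 0.105% in AC220 1 and 0.832% in AC220 2, against 0.162% in DMSO 1 and 0.512% in DMSO 2.

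**Figure D2:**
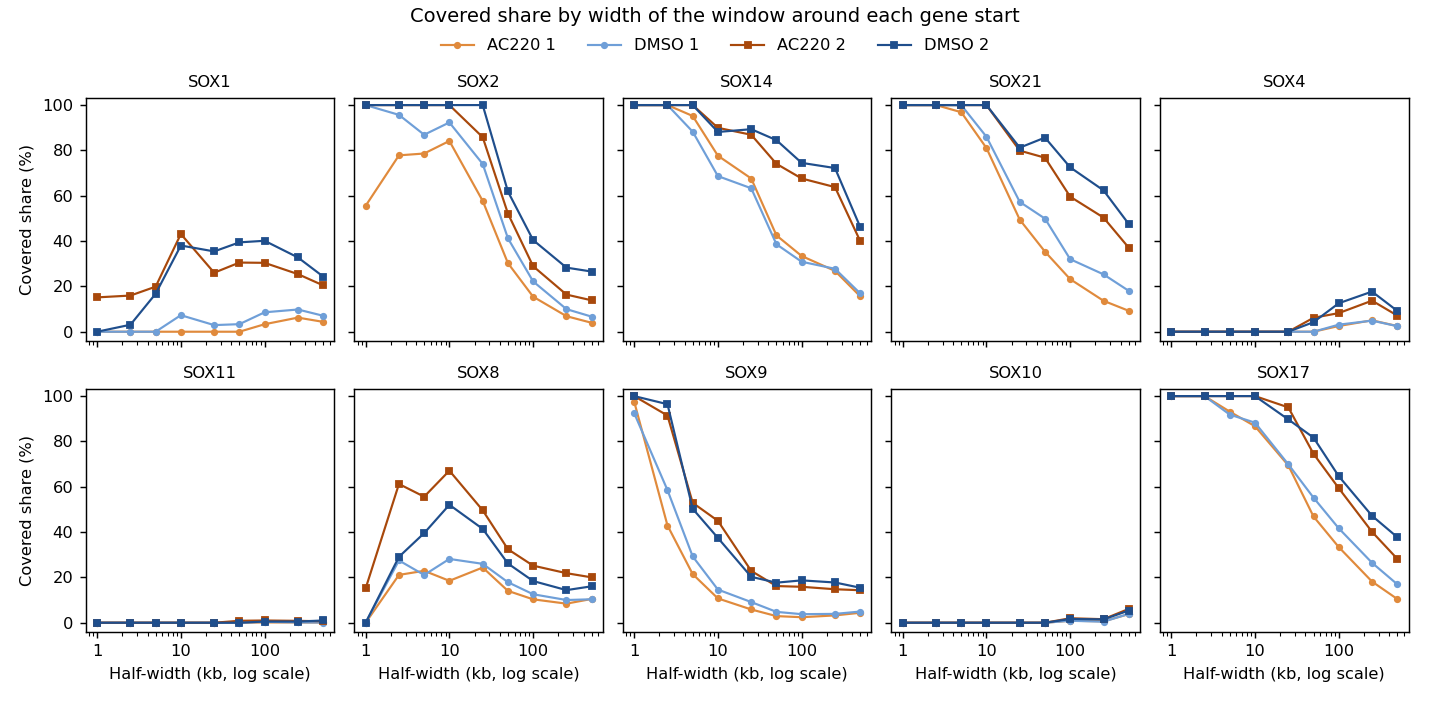
Share of bases inside peaks (y axis, %) in windows of growing half-width (x axis, kb, log scale) around each SOX start, with 1 line per library. At 1 kb the lines of SOX2, SOX9, SOX14, SOX17 and SOX21 lie at 92.5% or more and then decline, except that SOX2 in AC220 1 lies at 55.5%; those of SOX4 stay at 0% up to 25 kb, and those of SOX11 stay below 2% throughout.

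Set against the other 9 genes, SOX4 was at the low end without being alone there. Within 50 kb the median of the other 9 was 14.1% in AC220 1 and 32.4% in AC220 2, against 17.9% in DMSO 1 and 39.4% in DMSO 2. SOX4 minus that median averaged -23.4 percentage points over the 4 libraries and was negative in each. Yet SOX10 was at or below SOX4 in all 4 libraries, as was SOX11, and SOX1 was also at 0% in AC220 1. Within 50 kb, 6 of the other 9 genes lay above SOX4 in AC220 1 and 7 in each of the other libraries. The genes are not replicates, so no test was made of this difference.

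Group membership did not order the coverage either. Both group C genes, SOX4 and SOX11, lacked peaks at the start, while the 3 group E genes ran from a narrow peak on the start (SOX9) through flanking peaks (SOX8) to none (SOX10). In group B, SOX2, SOX14 and SOX21 were covered over at least 78.6% within 5 kb in every library, and SOX1 over at most 19.9%. These are counts of a few genes and were not tested.

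**Figure D3:**
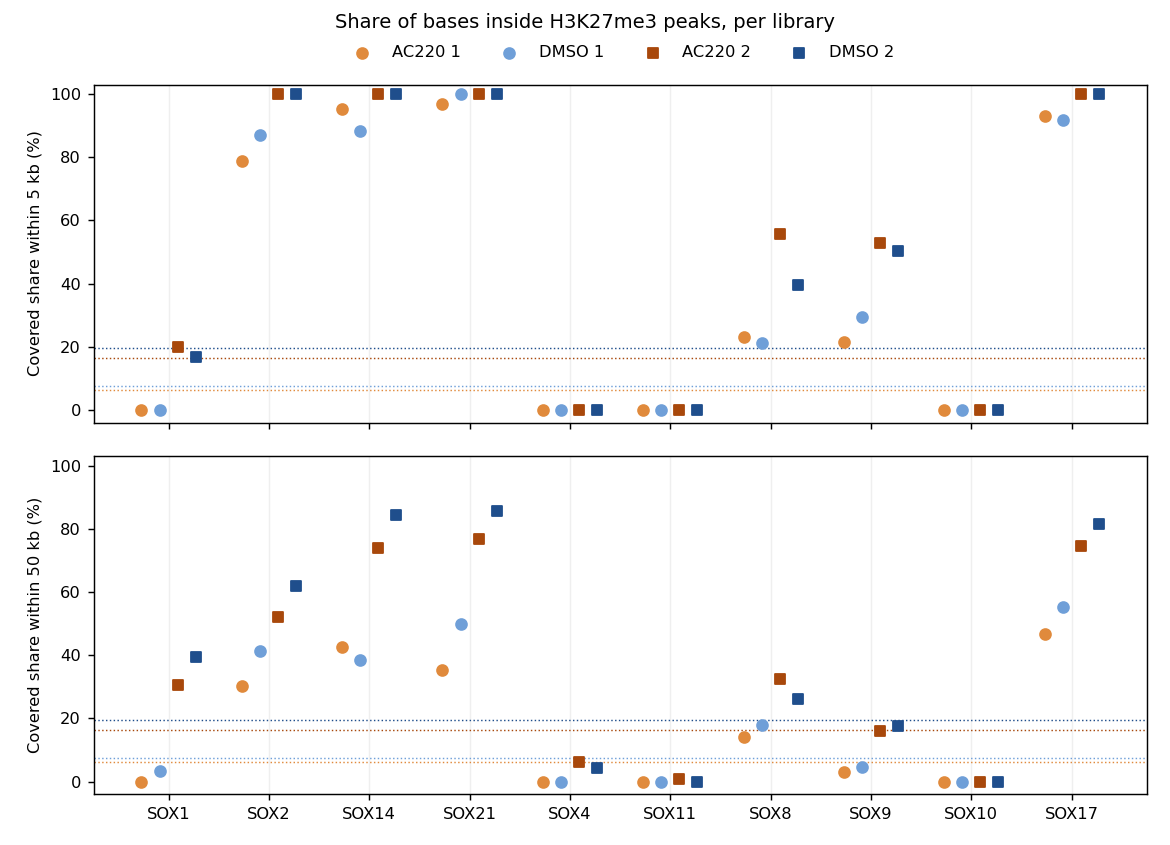
Share of bases inside H3K27me3 peaks (y axis, %) within 5 kb (top) and 50 kb (bottom) of each SOX start, with 1 point per library and dotted lines at the mean of all tiled windows in that library. SOX2, SOX14, SOX17 and SOX21 lie at 78.6% or more within 5 kb in all 4 libraries, and SOX4, SOX10 and SOX11 lie at 0%.

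AC220 was next compared with DMSO over 50 kb on each side, to describe how peak coverage at these genes differed between the lists. SOX1, SOX2, SOX9, SOX17 and SOX21 were less covered with AC220 in both sets, and no member was more covered in both. That is 5 of the 9 members with any peak, against 43.9% of the 100 kb windows with a peak that were lower in both sets and 10.1% that were higher in both. The members' share is near that of all windows, and so is no result about SOX genes. Trimming the lists, keeping only peaks with a -log10 q of at least 3, or narrowing the window to 25 kb each left 3 of these 5, and widening it to 100 kb added SOX4 to the 5. No member had both AC220 libraries below both DMSO libraries (0.995% of windows did) or above them (0.647%).

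In percentage points averaged over the sets, SOX21 differed most; SOX14, SOX2 and SOX1 differed more than SOX21 in set 2. Relative to DMSO the order was another, since SOX1 was 100% lower in set 1 and 22.6% lower in set 2. SOX21 was covered over 35.3% within 50 kb in AC220 1 and 76.8% in AC220 2, against 49.9% in DMSO 1 and 85.7% in DMSO 2. That is 29.2% lower in set 1 and 10.4% lower in set 2, and the treatments overlap because AC220 2 exceeds DMSO 1. SOX2 had 30.3% in AC220 1 and 52.2% in AC220 2, against 41.2% in DMSO 1 and 61.9% in DMSO 2, which is 26.6% and 15.7% lower. SOX17 had 46.9% in AC220 1 and 74.5% in AC220 2, against 55.2% in DMSO 1 and 81.7% in DMSO 2, which is 15.1% and 8.73% lower. Within 5 kb all 3 were covered at 100% under both treatments in set 2, and in set 1 they differed by -8.28 percentage points at SOX2, 1.32 at SOX17 and -3.14 at SOX21.

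SOX14, the fourth broadly covered gene, had no common direction. Its share within 50 kb was 42.5% in AC220 1 and 74.1% in AC220 2, against 38.6% in DMSO 1 and 84.5% in DMSO 2. SOX8 was also divided, at 14.1% in AC220 1 and 32.4% in AC220 2, against 17.9% in DMSO 1 and 26.1% in DMSO 2. SOX9 had small differences in the same direction in both sets, at 2.93% in AC220 1 and 16.2% in AC220 2, against 4.80% in DMSO 1 and 17.7% in DMSO 2. SOX4 and SOX11 had 0% in both libraries of set 1, and in set 2 AC220 was higher by 1.93 and 0.861 percentage points; with 100 kb on each side the mean difference at SOX4 was -2.47.

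The differences of the 4 broadly covered genes were set against those of similarly covered windows. Among 3227 windows of 100 kb with a mean over the 4 libraries of at least 40%, 66.3% had lower AC220 shares in set 1 and in set 2, and the median difference was -5.46 percentage points in set 1 and -5.02 in set 2. Of the 4 genes at that level, SOX2, SOX17 and SOX21 were lower in both. SOX21, at -14.6 percentage points in set 1, lay above 13.2% of those windows, and at -8.88 in set 2 it lay above 30.4% of them. SOX2, at -11.0 and -9.73, lay above 24.5% and 26.9% of them, and SOX17, at -8.31 and -7.13, above 36.2% and 38.6%. SOX14 lay above 92.8% of them in set 1, at 3.92, and above 24.4% in set 2, at -10.4.

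Pooled over sets, no member's difference within 5 kb or 50 kb exceeded the larger SD of its treatments. SOX21 averaged 56.1% ± 29.3 with AC220 and 67.8% ± 25.3 with DMSO, SOX2 averaged 41.2% ± 15.5 with AC220 and 51.6% ± 14.6 with DMSO, and SOX17 60.7% ± 19.6 with AC220 and 68.4% ± 18.7 with DMSO (SD, n = 2 each; exact permutation test, two-sided, p = 0.667 for each). Over the 10 members the exact permutation p was 0.667 or 1 within 5 kb and within 50 kb, before any adjustment for the number of genes. With 2 libraries against 2 the test cannot go below 0.33, so these p-values do not show that the treatments were alike.

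**Figure D4:**
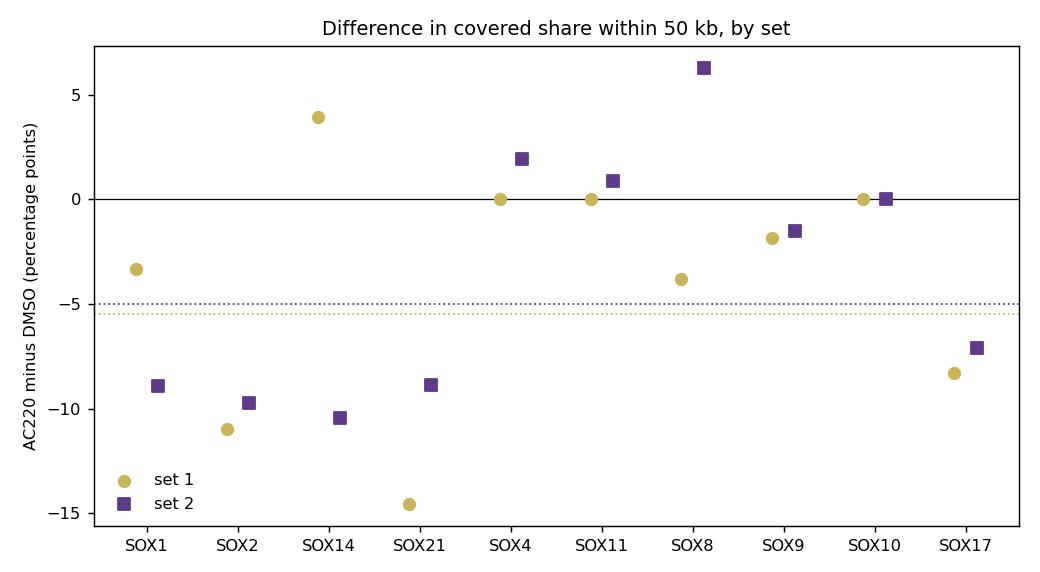
Difference in covered share within 50 kb (y axis, AC220 minus DMSO, percentage points) for each SOX gene, with a point for each set and dotted lines at the median difference of 100 kb windows with a mean coverage of at least 40%. SOX1, SOX2, SOX9, SOX17 and SOX21 lie below 0 in both sets, SOX14 and SOX8 have opposite signs, and SOX10 lies at 0.

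Base by base, most of the covered sequence near these genes was either common to all libraries or found in set 2 alone. Of 434 kb inside a peak of any library within 50 kb of the 10 starts, 146 kb were covered in all 4 libraries and 104 kb in both libraries of set 2 alone, with 0 kb in set 1 alone. These are 33.5% and 23.9% of the covered sequence near the 10 genes, against 19.0% and 25.9% of the 667 Mb inside a peak of any library over chromosomes 1 to 22 and X. Sequence inside peaks of both DMSO lists but of no AC220 list came to 6.16 kb, or 1.42% of the covered sequence, against 1.76% genome-wide. Of this, 2.82 kb lay near SOX2 and 1.02 kb each near SOX9 and SOX17. Sequence inside peaks of both AC220 lists but of no DMSO list came to 1.24 kb, or 0.286% against 0.522% genome-wide, with 0.766 kb near SOX14 and 0.475 kb near SOX17. The excess of set 2 was a feature of the whole lists, and its share near these genes was close to the genome-wide share.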

How the data were processed

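The members and alternatives were chosen with earlier results of these data known. Per the submitters' processing notes the tools were BWA 0.7.10-r789 and MACS2 2.1; their settings, and any use of inputs or Drosophila reads in the calls, are not given in the sources used here. Each library has 1 deposited list, so calling was per library. The deposited columns hold positions in bp, a fold enrichment (a ratio over the background of that library), a -log10 p, a -log10 q and a score for each peak, which was 10 times -log10 q without its decimals for 99.99% or more of each list. Ranks and filters on these values of the authors stayed within a list. The build is not stated; contig names and the highest peak end on chromosome 1, 249236554, match GRCh37. Positions count from 1.

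Covered share is the percent of a window's bases inside any peak. Windows were tiled from the first base up to the last peak of each chromosome, with assembly gaps kept. Windows in gaps raise the shares of windows without a peak and lower the shares of covered windows, by an amount that was not measured. All 10 members are named, and no other gene was chosen by its values. Treatments were compared on the covered share by exact permutation, two-sided, over the 6 ways to assign 4 libraries. Coverage was checked on simulated lists. Python 3.11.15, numpy 2.4.6, pandas 2.3.3, scipy 1.17.1 and matplotlib 3.10.9 were used. Alternatives were other window widths, a start moved by 0.5 kb, peaks with -log10 q of at least 3, lists trimmed to equal length with the highest -log10 q kept, joined peaks, other thresholds, left-out libraries and a replicate block.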

Additional observations from a re-analysis of the deposited data

How the results depend on the processing

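The 4 members covered by at least 50% within 5 kb in all 4 libraries were the same genes under the window widths, the trimmed and joined lists, the moved starts, the other thresholds and the left-out libraries that were run; with peaks of -log10 q of at least 3, 2 were left, SOX14 and SOX21. The 5 members lower with AC220 in both sets became 3 within 25 kb (SOX1, SOX2 and SOX21), 3 with the stricter -log10 q, 3 with DMSO lists cut to the length of the AC220 list in their set and 3 with all lists trimmed to the shortest; SOX2 and SOX21 were among the 3 each time. Within 100 kb there were 6, the same 5 and SOX4. Each set alone gave 6, an alternative added after seeing the data. SOX4 minus the median of the other 9 stayed negative, at -35.3 percentage points within 25 kb and -7.20 with the stricter -log10 q. The cause of these shifts was not tested.

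The mean difference, AC220 minus DMSO, reversed for some members (percentage points). Within 10 kb, in place of 5 kb, it was -1.11 for SOX1, 1.82 for SOX9 and -0.79 for SOX17. With the stricter -log10 q SOX17 within 5 kb came to -45.9, because the AC220 1 peak at its start was removed, and SOX1 and SOX9 within 50 kb to 0.15 and 0.29. Within 25 kb SOX14 was 0.92 and SOX17 2.42, and within 100 kb SOX4 was -2.47. With each DMSO list trimmed, SOX1 was 4.17, SOX9 3.18 and SOX14 1.18; with all lists at the shortest length, SOX9 was 0.29 and SOX14 0.19. With joined peaks SOX2 within 5 kb was 0.79.

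Leaving out each library in turn unbalances the sets. The difference then took both signs for the members listed next; it did not for SOX10 (0 throughout), for SOX11 (0 within 5 kb, 0 to 0.861 within 50 kb), or within 5 kb for SOX4 (0) and SOX21 (-3.14 to 0). Within 50 kb it ranged from -24.2 to 11.9 for SOX1, -21.3 to 0.60 for SOX2, -2.11 to 4.04 for SOX4, -7.95 to 10.4 for SOX8, -8.31 to 4.94 for SOX9, -26.2 to 19.7 for SOX14, -21.6 to 6.11 for SOX17 and -32.5 to 8.99 for SOX21. Within 5 kb it ranged from -8.38 to 11.5 for SOX1, -14.8 to 6.55 for SOX2, -7.39 to 25.3 for SOX8, -18.3 to 13.1 for SOX9, -2.41 to 9.34 for SOX14 and -3.43 to 4.75 for SOX17. With the replicate block, which pairs libraries by number, the mean differences were the same, such as -11.7 for SOX21 within 50 kb, and the exact sign-flip p was 0.5 or 1; 0.5 is the smallest that 2 pairs allow. The labels give a shared number and nothing more to pair the libraries.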

Other observations

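In AC220 2, 0.136 kb beyond the SOX1 start as rounded to the nearest kb, lay a peak of 303 bp (chr13:112722137-112722439). Its -log10 q of 6.68 was above that of 99.5% of the peaks in that list, while its width was above that of only 5.34% of them. The other libraries had no peak within 1 kb of that start. The nearest peaks to SOX11 in AC220 1, DMSO 1 and DMSO 2 were likewise short, at 261, 258 and 369 bp, with -log10 q of 2.48, 3.30 and 3.56, and lay 64.3 kb, 58.3 kb and 52.8 kb away. SOX2, SOX8, SOX9 and SOX14 had more coverage on the side of higher coordinates in all 4 libraries, and SOX17 and SOX21 on the side of lower coordinates. For SOX14 the higher side was covered over 57.3% in AC220 1 and 93.1% in AC220 2, against 58.2% in DMSO 1 and 92.9% in DMSO 2, and the lower side over 27.7% and 55.1% in the AC220 libraries, against 19.0% and 76.2% in the DMSO libraries.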
